A study of Sus scrofa with 12 samples.

Results

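Cells carry fatty acids and retinoids bound to a family of small proteins, which includes the fatty acid-binding proteins (FABPs) and the cellular retinoic acid-binding proteins. In pig (Sus scrofa) embryos 6 genes of this family and of fatty acid synthesis were followed, of 12627 genes measured: FABP3, FABP4, FABP5, CRABP2, FASN (fatty acid synthase) and SCD (stearoyl-CoA desaturase). The genes were picked with earlier results of these data known, and their probes by gene symbol alone, in the annotation of the array platforms. This gave 37 probes of 89014 in all, 9 of 43794 on the first array set and 28 of 45220 on the second. FABP4 had 7 probes on the second array set and 0 on the first.

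The study set hatched blastocysts, collected 5.5 days after in vivo insemination, directly against early blastocysts, collected at 5 days. It used 2 microarray designs with 6 arrays each, and every array carried RNA of both stages in different dyes. In each array set 3 arrays had hatched blastocyst in Cy5 and early blastocyst in Cy3, and 3 had the dyes swapped. An array is called here after its Cy5 stage with a replicate number that follows the order of deposition and pairs nothing. It is not stated whether arrays share an RNA extract or a litter, within an array set or between the 2 sets. The p-values therefore cover only the spread among arrays, part of which may be technical. Likeness between the array sets need not be independent repetition.

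For each probe and array the files hold 1 log ratio of the channels, taken here as log2. Which stage stands in the numerator cannot be read from the labels. A ratio is therefore called positive or negative as the files sign it, and neither word says which stage was higher. The labels also do not say whether both dye orientations share a numerator. Every call below assumes that they do. A ratio carries no level: it does not show how strongly a gene is expressed, nor, without channel intensities, whether a probe stood above background. In these whole-embryo samples fewer cells of a type and less RNA per cell cannot be told apart.

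FASN builds palmitate from acetyl and malonyl units, and SCD puts a double bond into saturated fatty acids. FABPs hold long-chain fatty acids in the cytosol and pass them to membranes, droplets, mitochondria and nuclear receptors. FABP3 is the form of heart and muscle, FABP4 that of fat cells and macrophages, and FABP5 that of skin and many other epithelia. CRABP2 hands retinoic acid to its nuclear receptors, and FABP5 has been described in mouse and human cells as a second carrier of retinoic acid. Pig embryos are known for their large store of lipid droplets. No probe or protein sequence was at hand, so none is shown.

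Both array sets placed FASN on the positive side by a single probe and FABP5 on the negative side by every probe. CRABP2 was called by its probe on the first, not by that on the second. FABP3, FABP4 and SCD had no called probe on either array set on which they were measured. In limma fits over all probes, called at a Benjamini-Hochberg adjusted p under 0.05, 3 of 9 member probes were called on the first array set, against 4.64% of all probes. Of these 2 were positive, as were 2.16% of all probes, and 1 was negative, as were 2.48%. On the second array set 5 of 28 were called, against 6.12% of all probes, with 1 positive (2.49% of all probes) and 4 negative (3.62%). Because the choice of genes was not blind, these shares are a description. The called probes are not separate findings either, since 4 of the 5 target FABP5.

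**Figure D1:**
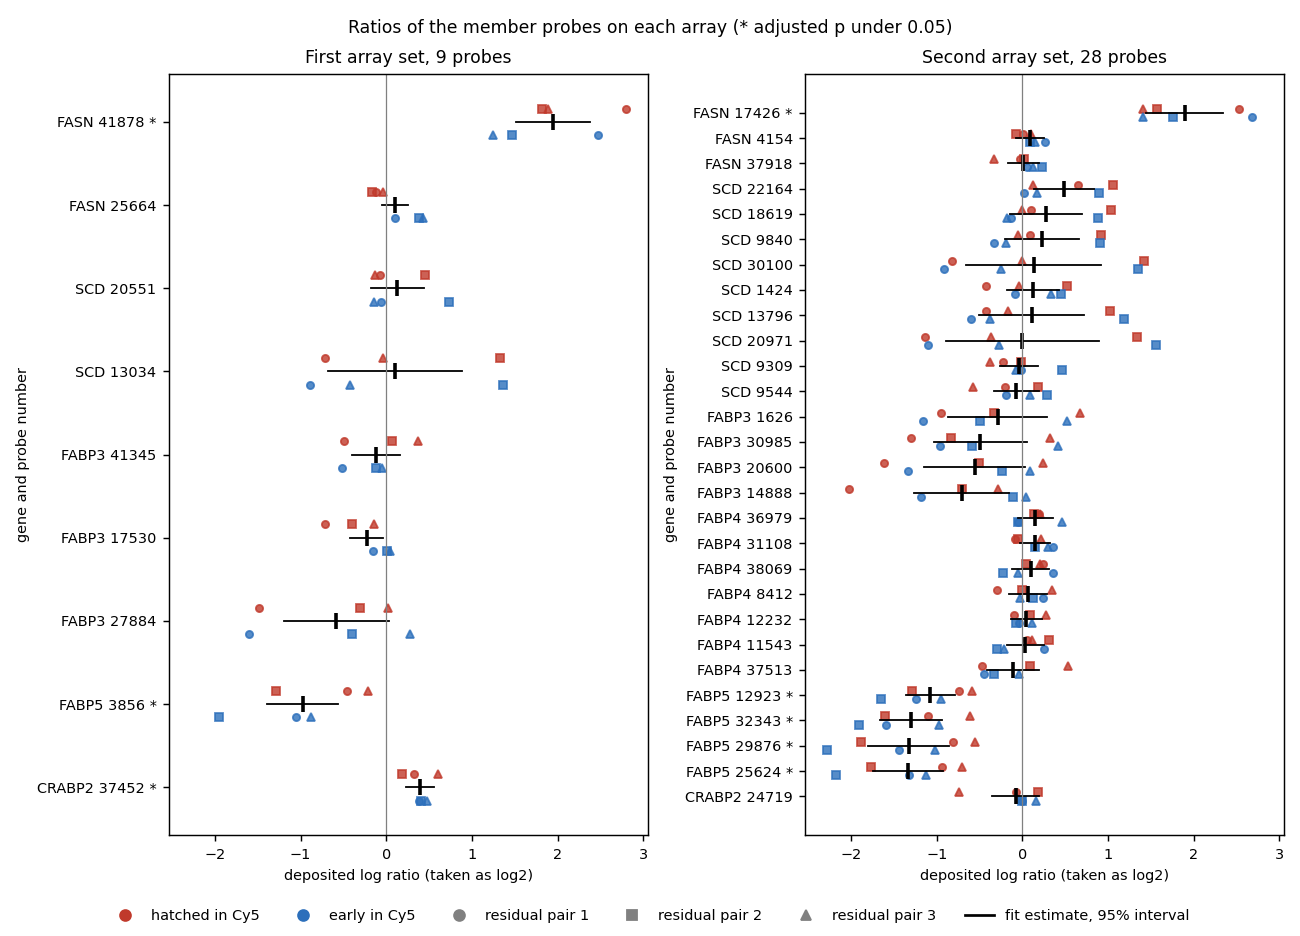
Deposited log ratio (x axis, taken as log2) of every FASN, SCD, FABP3, FABP4, FABP5 and CRABP2 probe (y axis) on the 6 arrays of either array set. Red points are arrays with hatched blastocyst in Cy5, blue points arrays with early blastocyst in Cy5, marker shapes the residual pairs of arrays described in the text, and black lines the limma estimate with its 95% interval. The highest FASN probe of each set lies at 1.24 or above on every array, and every FABP5 point lies below 0.

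FASN had 2 probes on the first array set, and they gave different readings. Probe 41878 had log2 ratios of 2.80, 1.82 and 1.89 on the arrays with hatched blastocyst in Cy5 (replicates 1, 2 and 3) and of 1.47, 2.47 and 1.24 on those with early blastocyst in Cy5. All 6 lay on the positive side, with the highest on hatched in Cy5 replicate 1 and early in Cy5 replicate 2, and the orientations overlapped. The estimate was 1.95 ± 0.19 (SE, n = 6 arrays; limma adjusted p = 0.00290), a 3.86-fold ratio if the base is 2. It ranked 34th by size among the 43794 probes. Probe 25664 of the same gene read -0.12, -0.17 and -0.04 with hatched blastocyst in Cy5 and 0.39, 0.11 and 0.42 with early blastocyst in Cy5. These values split by dye orientation without overlap, around an estimate of 0.10 ± 0.07 (adjusted p = 0.574; 95% interval -0.05 to 0.25).

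A like split between FASN probes was seen on the second array set, which may carry the same RNA as the first. Probe 17426 had log2 ratios of 2.53, 1.57 and 1.41 on the arrays with hatched blastocyst in Cy5 and of 1.76, 2.68 and 1.41 on those with early blastocyst in Cy5. Again hatched in Cy5 replicate 1 and early in Cy5 replicate 2 were highest. The estimate was 1.89 ± 0.19 (SE, n = 6 arrays; limma adjusted p = 0.00198), a 3.71-fold ratio, ranked 80th among 45220 probes. Probes 4154 and 37918 lay at 0.09 ± 0.07 (95% interval -0.07 to 0.25) and 0.01 ± 0.08 (-0.17 to 0.19), with single arrays between -0.34 and 0.27. Set against each other on the same arrays, probe 25664 minus probe 41878 ran from -2.92 to -0.82 on the first array set. On the second, probe 4154 minus probe 17426 ran from -2.51 to -1.26, and probe 17426 minus probe 37918 from 1.28 to 2.63. Each of these 3 differences had an exact sign-flip permutation p = 0.0312 (2-sided), the smallest that 6 arrays allow, which became 0.301 after adjustment over the 77 probe pairs of the members and so did not pass. The probes' positions along the FASN transcript were not used here. The cause of the difference was not tested.

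The calls of the high FASN probes held with slide as a block, at an adjusted p = 0.0121 for the first array set and 0.00827 for the second. Within the slide that held 4 arrays the limma estimates were 1.86 (adjusted p = 0.0172) and 1.77 (0.0183), and the mean over the slide with 2 arrays was 2.13 and 2.14. Both calls also held without any single array, with estimates between 1.76 and 2.07 and between 1.71 and 2.03. With trended and robust eBayes the call on the first array set ended (adjusted p = 0.0839), as 0 of its 43794 probes were then called (5857 at an unadjusted p under 0.05). Averaging the probes of the gene gave 1.02 ± 0.09 for the first array set and 0.66 ± 0.09 for the second, which rests on the 1 high probe in each case. The median of the 3 probes of the second array set was 0.13 and was not called (adjusted p = 0.233).

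SCD acts downstream of FASN, and its ratios followed the arrays rather than a common side. Its probe 13034 of the first array set read -0.72, 1.33 and -0.03 on the arrays with hatched blastocyst in Cy5 and 1.36, -0.89 and -0.42 on those with early blastocyst in Cy5. Probe 30100 of the second array set read -0.82, 1.41 and -0.0034 with hatched blastocyst in Cy5 and 1.35, -0.91 and -0.25 with early blastocyst in Cy5. In both sets hatched in Cy5 replicate 2 and early in Cy5 replicate 1 stood high, hatched in Cy5 replicate 1 and early in Cy5 replicate 2 stood low, and replicate 3 of either orientation lay between. The orientations overlapped throughout.

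Of the 2 SCD probes of the first array set and the 9 of the second, 0 were called by limma, and 0 and 1 had an unadjusted p under 0.05. Estimates lay at 0.11 and 0.13 on the first array set and between -0.07 and 0.49 on the second. The intervals were wide. For probe 13034 the 95% interval ran from -0.67 to 0.89, and for probe 20971, whose arrays ranged from -1.14 to 1.55, from -0.90 to 0.90. Probe 22164 was the one SCD probe above 0 on all 6 arrays, with 0.65, 1.06 and 0.13 on the arrays with hatched blastocyst in Cy5 and 0.90, 0.02 and 0.17 on those with early blastocyst in Cy5. Its estimate of 0.49 ± 0.15 did not pass (adjusted p = 0.128), except with slide as a random block (0.45, adjusted p = 0.0458). The correlation within slides fitted there was negative (-0.15). That setting called 5323 of all probes of the set, against 2766 without the block. Probe 20971 lay at -0.72 (limma adjusted p = 0.0363) when hatched in Cy5 replicate 2 and replicate 1 of the early-in-Cy5 arrays were left out, against -0.0013 with them. The probe read highest on these arrays, at 1.33 and 1.55, so leaving them out had to lower the ratio. This setting was chosen after seeing the data. It called 5448 of all probes of the set.

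This arrangement was shared by probes outside the members. Over all other probes, deviations from the fit were most alike between 3 pairs of arrays, each of opposite dye orientation. The first pair is hatched in Cy5 replicate 1 with early in Cy5 replicate 2, the second is hatched in Cy5 replicate 2 with early in Cy5 replicate 1, and the third holds replicate 3 of both orientations. Residual correlations were taken across probes, which are not independent replicates. They were 0.637, 0.720 and 0.374 on the first array set and 0.538, 0.703 and 0.470 on the second. Other arrays of opposite orientation reached at most 0.0556 and 0.0397. The pairs were chosen for the highest sum of these correlations. Residuals of an orientation sum to 0 for each probe, so high values in the chosen pairs lower the rest. The contrast is therefore partly set by the choice. The labels name no such pairs. The first and second pairs each span both slides of their set.

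Pair means show how far SCD moved with these pairs. For probe 13034 they were -0.80, 1.35 and -0.23, a range of 2.15, while the standard deviation within pairs was 0.174. Only 0.274% of all probes of the first array set had a wider range of pair means, and the median over all probes was 0.263. For probe 20971 of the second array set they were -1.12, 1.44 and -0.32, with a standard deviation within pairs of 0.100 and 0.546% of probes wider. The other SCD probes of either set moved less. Over the 9 SCD probes of that set the mean of the second pair ran from 0.22 to 1.44 and that of the first pair from -1.12 to 0.34.

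**Figure D2:**
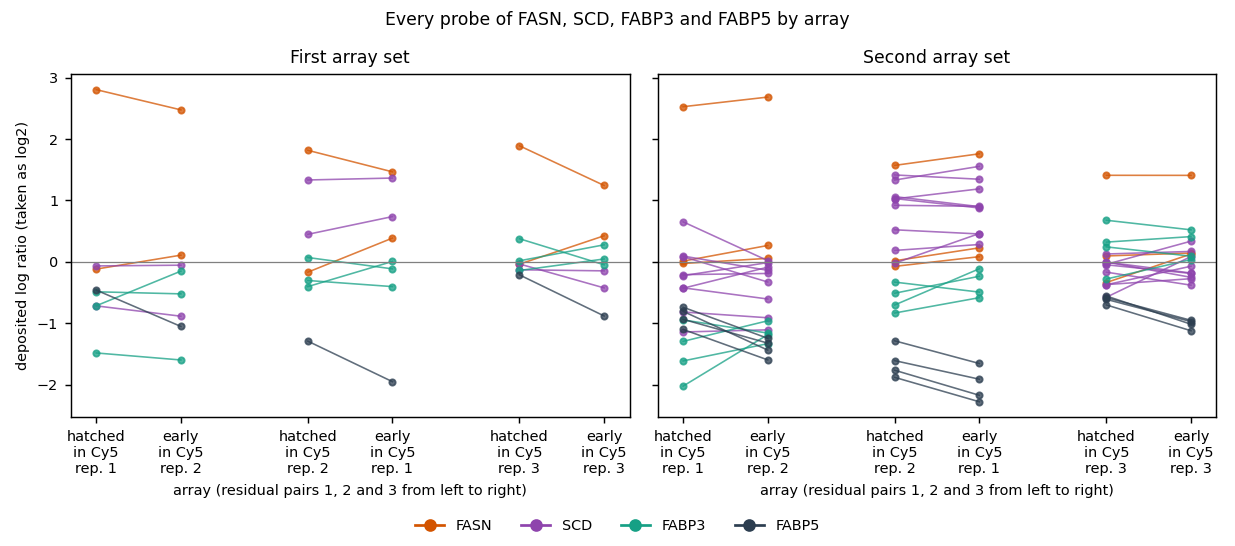
Deposited log ratio (y axis, taken as log2) of every probe of FASN, SCD, FABP3 and FABP5 on each array (x axis), with the arrays ordered by residual pair and lines joining the arrays of a pair. SCD is highest on the second pair, FABP3 lowest on the first, FABP5 lowest on the second, and the high FASN probe highest on the first, in both array sets.

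FABP3 showed a different order of the same pairs. Its probe 27884 of the first array set read -1.48, -0.30 and 0.02 on the arrays with hatched blastocyst in Cy5 and -0.40, -1.60 and 0.28 on those with early blastocyst in Cy5. The first pair was far on the negative side, and the third at or above 0. The estimate was -0.58 ± 0.26 (SE, n = 6 arrays; limma adjusted p = 0.362), between -0.80 and -0.33 without single arrays, and 1.04% of all probes had a wider range of pair means. Probes 17530 and 41345 lay at -0.23 ± 0.08 (adjusted p = 0.241) and -0.12 ± 0.12 (0.733), and between -0.30 and -0.15 and between -0.22 and -0.0025 without single arrays.

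The 4 FABP3 probes of the second array set ran from -2.02 to -0.95 on hatched in Cy5 replicate 1, from -0.83 to -0.33 on replicate 2 and from -0.28 to 0.68 on replicate 3. With early blastocyst in Cy5 they ran from -0.58 to -0.11 on replicate 1, from -1.33 to -0.96 on replicate 2 and from 0.04 to 0.52 on replicate 3. Every probe was lowest on the first pair. Estimates lay between -0.71 and -0.29 with standard errors from 0.23 to 0.25, and the smallest adjusted p was 0.167, for probe 14888 (-0.71; 95% interval -1.27 to -0.15). Without single arrays that probe lay between -0.89 and -0.46, and probe 1626, the nearest to 0, between -0.51 and -0.09. Of the 7 FABP3 probes of both sets 0 were called by limma, and 1 in each set had an unadjusted p under 0.05.

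FABP4 gave ratios near 0. Over its 7 probes the arrays with hatched blastocyst in Cy5 ranged from -0.47 to 0.24 on replicate 1, from -0.05 to 0.31 on replicate 2 and from 0.11 to 0.54 on replicate 3. Those with early blastocyst in Cy5 ranged from -0.34 to 0.15, from -0.45 to 0.36 and from -0.22 to 0.46 on replicates 1, 2 and 3. No probe lay on 1 side on all 6 arrays, which 9.95% of all probes of the set did. Estimates ran from -0.11 to 0.15, 0 were called by limma (0 at an unadjusted p under 0.05), and the widest 95% interval, that of probe 37513, ran from -0.41 to 0.19. Whether its probes stood above background was not tested.

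FABP5 was on the negative side on all arrays of both sets. Its probe 3856 on the first array set read -0.46, -1.29 and -0.21 with hatched blastocyst in Cy5 and -1.95, -1.05 and -0.88 with early blastocyst in Cy5. The second pair was the most negative, and the orientations overlapped. The estimate was -0.97 ± 0.18 (SE, n = 6 arrays; limma adjusted p = 0.0229), a 1.97-fold ratio. The call ended with slide as a block (adjusted p = 0.0522), within the slide of 4 arrays (-0.86, 0.0824; the slide of 2 arrays averaged -1.21), with trended and robust eBayes (0.0967), and when hatched in Cy5 replicate 1 (0.0698) or, of the early-in-Cy5 arrays, replicate 2 (0.0691) or 3 (0.0540) was left out. It held with residual pairs treated as random blocks (0.0186), a fit that still counts 6 arrays. On the averages of the 3 pairs it ended (limma adjusted p = 0.236). The ratio itself lay between -1.09 and -0.81 without any 1 array.

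All 4 FABP5 probes of the second array set were called. Probe 25624 had the largest estimate and read -0.94, -1.77 and -0.70 with hatched blastocyst in Cy5 and -2.17, -1.32 and -1.12 with early blastocyst in Cy5. The second pair was again the most negative. Its estimate was -1.34 ± 0.17 (SE, n = 6 arrays; limma adjusted p = 0.00493), a 2.53-fold ratio. Probes 29876, 32343 and 12923 lay at -1.33 ± 0.21, -1.30 ± 0.16 and -1.08 ± 0.12, with adjusted p-values of 0.00946, 0.00360 and 0.00302. Each of the 4 was called with slide as a block (highest adjusted p = 0.0276), within the slide of 4 arrays (highest 0.0474) and without any single array (highest 0.0368). With residual pairs treated as random blocks the highest was 0.00776. On the averages of the 3 pairs none of them was called (limma adjusted p from 0.0966 to 0.150). The means over the slide of 2 arrays lay between -1.55 and -1.20. In every pair the array with early blastocyst in Cy5 was the more negative for all 5 probes of the gene, yet the dye term was called for none of them (smallest adjusted p = 0.321, and 0 of 5 at an unadjusted p under 0.05).

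FABP4 and FABP5 lie close together in the pig genome. In the RefSeq gene table of the assembly Sscrofa11.1, PMP2, the myelin member of the same family, and an uncharacterised non-coding RNA stand between them, IMPA1 borders FABP4, and PAG1 borders FABP5. Of the measured genes of this stretch only FABP5 was called in the gene fits, in which the probes of a symbol are averaged. PMP2 lay at 0.08 ± 0.05 in the first array set and at 0.03 ± 0.06 in the second. PAG1 lay at 0.03 ± 0.08 and 0.13 ± 0.09. IMPA1 was measured on the second array set, at -0.33 ± 0.13 (adjusted p = 0.173).

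CRABP2 had 1 probe per array set, of which that of the first was called. Probe 37452 of the first array set read 0.32, 0.19 and 0.60 with hatched blastocyst in Cy5 and 0.41, 0.38 and 0.47 with early blastocyst in Cy5. All 6 arrays lay above 0 (7.92% of all probes of the set lay on 1 side on all 6), and the orientations overlapped. The estimate was 0.40 ± 0.07 (SE, n = 6 arrays, limma adjusted p = 0.0206). With residual pairs treated as random blocks the adjusted p was 0.0407, and on the averages of the 3 pairs it was 0.197. The call ended with slide as a block (0.0543), within the slide of 4 arrays (0.41, 0.112; the slide of 2 arrays averaged 0.36), with trended and robust eBayes (0.224), and when replicate 1 (0.0683) or 3 (0.0603) of the hatched-in-Cy5 arrays or replicate 2 (0.0855) or 3 (0.0913) of the early-in-Cy5 arrays was left out.

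On the second array set probe 24719 of CRABP2 read -0.0767, 0.18 and -0.74 with hatched blastocyst in Cy5 and -0.0068, -0.00096 and 0.16 with early blastocyst in Cy5. Its estimate was -0.08 ± 0.12 (SE, n = 6 arrays; limma adjusted p = 0.836), with a 95% interval from -0.36 to 0.19. Hatched in Cy5 replicate 3 stood apart, and without it the estimate was 0.05. The array sets were fitted apart, and the difference between the probes was not tested.

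Genes whose ratios over the 12 arrays came closest to each member were sought among the 3817 genes measured on both array sets, by the root mean square difference of the gene ratios. The nearest genes lie below the median over all genes by the way they were sought, so that median only gives a scale. For FABP5 these were CELA1 (0.41), the succinate-CoA ligase subunit gene SUCLG2 (0.48) and PLEK2 (0.57), against a median of 1.26 over all genes. For FABP3 they were RIMKLB (0.28), the thrombin receptor gene F2R (0.35) and RNF139 (0.37), with a median of 0.72. For SCD they were the actin regulator gene CFL2 (0.22), TMCO1 (0.23) and LMBRD1 (0.24), with a median of 0.64. For CRABP2 they were FCRLA (0.20), ACTR1A (0.23) and the talin gene TLN1 (0.25), with a median of 0.45. For the mean of the FASN probes they were RGL2 (0.25), the regucalcin gene RGN (0.27) and the apolipoprotein gene APOC3 (0.30), with a median of 0.91.

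The surrounding pathways were described with 6 gene lists, in gene fits over the 11913 genes of the first array set and the 4531 of the second. On the first array set 8 of 115 measured list genes were called (6.96%, against 4.75% of all genes), where 2.38% of all genes were positive calls and 2.38% negative ones. Of the lists' 93 genes on the second, 11 were called (11.8%, against 11% of all genes, of which 5.27% were positive and 5.72% negative). The share on the second array set lies near that of all its genes. The shares of all genes apply in the same way to the counts of single lists below. Within the slide of 4 arrays 2 and 4 list genes were called. The median ratios of the lists together were 0.01 and 0.03, against 0.0027 and 0.0050 over all genes.

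Other lipid- and retinoid-binding proteins were called on the second array set alone, 2 of 10, both positive. They were DBI, the acyl-CoA-binding protein (0.51 ± 0.05, limma adjusted p = 0.00239), and SCP2, a sterol and lipid carrier (0.52 ± 0.08, 0.00645). On the first array set 0 of 11 passed (3 at an unadjusted p under 0.05), with DBI at 0.46 ± 0.14 and SCP2 at 0.29 ± 0.08. The list medians were 0.01 and 0.03. Both were called with slide as a block and without any single array on the second array set. Within its slide of 4 arrays the SCP2 call ended (0.51, limma adjusted p = 0.0616).

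In fatty acid synthesis, elongation and desaturation, ACLY, which supplies the acetyl-CoA used by FASN, was called positive on the second array set (0.34 ± 0.06, limma adjusted p = 0.0133), 1 of 15 genes. It lay at 0.36 ± 0.10 on the first array set without passing (0.0978). There 2 of 22 were called, both negative: the elongase gene ELOVL2 (-0.48 ± 0.08) and OXSM, a synthase of the mitochondrial fatty acid pathway (-0.58 ± 0.12). The list medians were 0.03 and 0.12. Within the slide of 4 arrays the calls of ACLY, ELOVL2 and OXSM ended (limma adjusted p = 0.106, 0.116 and 0.126). The calls of ELOVL2 and OXSM ended with slide as a block (adjusted p = 0.0536 and 0.0957), that of OXSM also with residual pairs treated as random blocks (0.0620), and that of ACLY with its 3 probes taken at their median (0.25, 0.137). Without 1 array the call of ACLY ended for hatched in Cy5 replicate 1 (0.0557) and early in Cy5 replicate 2 (0.0565), that of ELOVL2 for hatched in Cy5 replicate 1 and any 1 early-in-Cy5 array (0.0511 to 0.0900), and that of OXSM for replicate 1 or 3 of the hatched-in-Cy5 arrays and replicate 2 or 3 of the early-in-Cy5 arrays (0.130 to 0.174).

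In fatty acid uptake, activation and storage 3 of 30 genes were called on the first array set and 1 of 30 on the second, all positive. AGPAT1 and AGPAT3 encode acyltransferases that add fatty acids on the way to phospholipids and triglycerides. AGPAT1 lay at 1.41 ± 0.13 on the first array set (limma adjusted p = 0.00284) and at 0.24 ± 0.07 on the second without passing (0.0880). AGPAT3 lay at 0.59 ± 0.08 on the second (0.00481). The hormone-sensitive lipase gene LIPE (1.25 ± 0.25) and the lipin gene LPIN2 (0.38 ± 0.07) were called on the first array set alone, and lay at -0.04 and 0.02 on the second. AGPAT1 and AGPAT3 were called with slide as a block and without any single array. LIPE and LPIN2 were not called with slide as a block (adjusted p = 0.0721 and 0.0739), nor LPIN2 with pairs treated as random blocks (0.0572), nor either of them without replicate 1 or 3 of the hatched-in-Cy5 arrays or replicate 2 or 3 of the early-in-Cy5 arrays (0.132 to 0.137 and 0.107 to 0.136). With the 4 LPIN2 probes taken at their median the ratio was 0.21 and was not called (0.221). The list medians were 0.05 and -0.00081.

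Fatty acid oxidation held the gene called negative on both array sets. ACADL, the long-chain acyl-CoA dehydrogenase of the first step of beta-oxidation, lay at -0.63 ± 0.11 on the first array set (limma adjusted p = 0.0219) and at -0.99 ± 0.13 on the second (0.00513), below 0 on 6 of 6 arrays each. It was the 1 gene called of 23 on the first array set, and 1 of 3 called among 18 on the second. The others there were ACADM, the medium-chain enzyme (-0.23 ± 0.05, 0.0346), and the enoyl-CoA hydratase gene ECHS1 (0.56 ± 0.11, 0.0218), on opposite sides. On the second array set the ACADL call held with slide as a block and without any single array. On the first it ended with slide as a block (0.0592) and without replicate 1 or 3 of the hatched-in-Cy5 arrays or replicate 2 or 3 of the early-in-Cy5 arrays (0.0745 to 0.0969). On the second the ECHS1 call ended with slide as a block (0.0522) and without any 1 of the arrays of those same names (0.0689 to 0.0747). There ACADM was not called without any 1 of the 6 arrays (0.0637 to 0.125), with slide as a block (0.0680), without the dye term (0.0620) or with pairs treated as random blocks (0.117). The list medians were -0.09 and 0.03.

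In the list for retinoid uptake and metabolism all calls on either array set were positive. On the first array set 2 of 13 were called, CYP26A1, which degrades retinoic acid (0.96 ± 0.16, limma adjusted p = 0.0203), and DHRS3, which turns retinal back into retinol (0.61 ± 0.09, 0.0117). CYP26A1 lay at 0.26 ± 0.13 on the second array set (0.277), on which DHRS3 was not measured. There 1 of 8 list genes was called, RARRES2 (0.84 ± 0.18, 0.0279), which was not measured on the first array set. RARRES2 encodes the secreted protein chemerin rather than a protein of retinoid uptake or metabolism. The calls of CYP26A1 and DHRS3 ended without early in Cy5 replicate 3 (0.0876 and 0.0606), that of CYP26A1 also without replicate 1 of the same orientation (0.0518) or hatched in Cy5 replicate 3 (0.0575). RARRES2 was not called with slide as a block (0.0557), or without replicate 1 or 3 of the hatched-in-Cy5 arrays or replicate 2 or 3 of the early-in-Cy5 arrays (0.0814 to 0.0959). The list medians were 0.05 and 0.04.

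Of the nuclear receptors and partners that respond to these ligands, 0 of 16 were called on the first array set (2 at an unadjusted p under 0.05, limma) and 3 of 12 on the second. The coactivator gene NCOA1 (-0.56 ± 0.10) and PPARG, a receptor for fatty acids that drives fat storage (-0.43 ± 0.11), lay on the negative side. RXRA, the shared partner of retinoid and fatty acid receptors, was called positive at 0.35 ± 0.07 although 2 of its 6 arrays lay below 0. With pairs treated as random blocks PPARG (adjusted p = 0.0747) and RXRA (0.0541) were not called, nor was PPARG with slide as a block (0.0547) or with its 3 probes taken at their median (0.0849). Without the dye term RXRA had an adjusted p = 0.210. Without early in Cy5 replicate 2 none of the 3 was called, with 0.0551 for NCOA1, 0.150 for PPARG and 0.0698 for RXRA, and RXRA had 0.0689 without early in Cy5 replicate 3. NCOA1 and PPARG also missed the threshold without replicate 1 or 3 of the hatched-in-Cy5 arrays, NCOA1 without early in Cy5 replicate 3, and PPARG without hatched in Cy5 replicate 2 or replicate 1 of the early-in-Cy5 arrays (0.0507 to 0.0551 for NCOA1, 0.0635 to 0.150 for PPARG). The list medians were -0.0065 and 0.02.

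**Figure D3:**
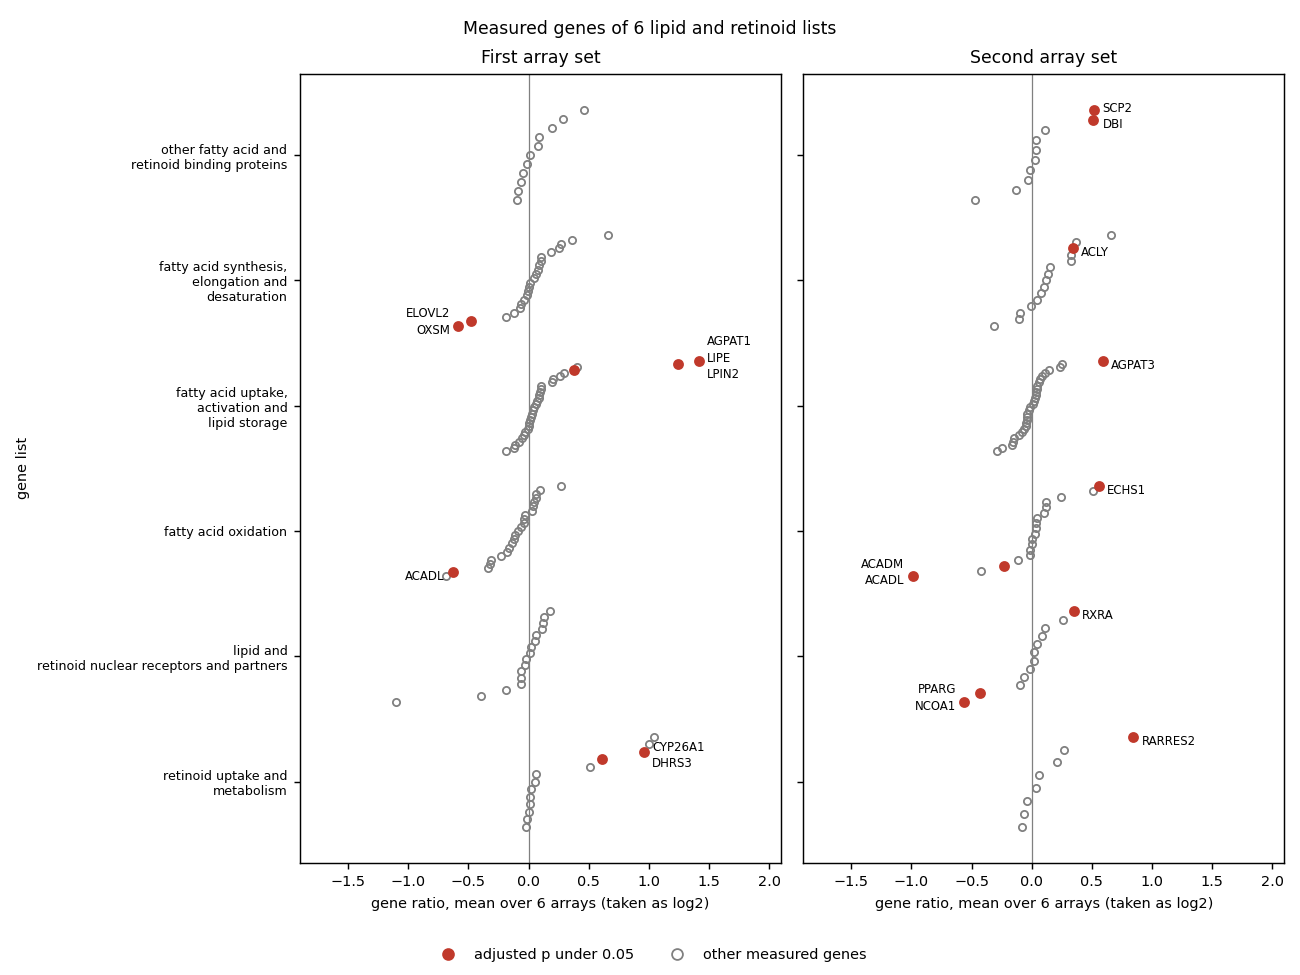
Gene ratios (x axis, mean over 6 arrays, taken as log2) of every measured gene of 6 lists of lipid and retinoid genes (y axis), for either array set. Red points are genes with a limma adjusted p under 0.05, named beside their list in order of ratio, and open points the rest. ACADL is the one gene called on both array sets.

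Markers of the blastocyst itself and of other cells were read on the same arrays, in the same limma gene fits. Blastocyst markers had 3 of 9 called on each array set. GATA2 (1.06 ± 0.15 and 1.30 ± 0.20) and KRT8 (0.76 ± 0.14 and 0.72 ± 0.16) were called positive on both, KRT18 (0.50 ± 0.11) positive on the first, and GATA6 (-0.72 ± 0.15) negative on the second, but ratios cannot show that a marker is present or absent. Adipocyte markers had 0 of 7 called on either array set (0 and 1 at an unadjusted p under 0.05), with list means per array between -0.11 and 0.14 on the first and between -0.18 and 0.03 on the second. Blood, macrophage and endothelium markers had 0 of 7 (0 unadjusted) and 1 of 8 called, PECAM1 at -0.25 ± 0.06 on the second array set, with list means per array between -0.15 and 0.20 and between -0.11 and 0.11. Oviduct and uterine markers had 0 of 10 (2 unadjusted) and 1 of 8 called, the uterine inhibitor gene UPTI, at 0.60 ± 0.16 in the first array set and at 2.97 ± 0.40 in the second, with list means per array between 0.0079 and 0.18 and between 0.20 and 0.61. These means include UPTI. The medians of this list were 0.02 and -0.01, with 5 of 10 and 4 of 8 genes above 0. Cumulus and granulosa markers had 0 of 8 (1 unadjusted) and 2 of 7 called, AMH (0.35 ± 0.08) and STAR (0.27 ± 0.07), with list means per array between -0.16 and 0.23 and between -0.0589 and 0.18. GATA2 and UPTI were called on the second array set without any single array. Every other marker call ended without 1 or more arrays (adjusted p up to 0.176). With slide as a block the calls of KRT8 (0.0524 and 0.0592), KRT18 (0.106), GATA6 (0.0504), PECAM1 (0.0621), AMH (0.0655) and STAR (0.0922) ended too, as did those of KRT18 (0.0783), PECAM1 (0.127), AMH (0.0645) and STAR (0.106) with pairs treated as random blocks. With probes taken at their median the second array set gave no call for AMH (0.20, 0.0923), STAR (0.20, 0.0839), KRT8 (0.60, 0.133) or PECAM1 (-0.20, 0.127), nor for STAR without the dye term (0.0531). The part of other cells in the ratios of the carriers was not tested.

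Which arrays count as separate samples bears on all calls above. When limma was fitted to the averages of the 3 residual pairs, 0 member probes were called on either array set (3 of 9 and 6 of 28 at an unadjusted p under 0.05), and of all probes 1 and 41 were. The high FASN probes then had adjusted p-values of 0.117 and 0.0861, and the FABP5 probes between 0.0966 and 0.236.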

How the data were processed

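Log2 ratios of the 2 channels were deposited by the authors, 1 value per probe and array; how they were made is not given in the sources used here. The log base was inferred from their range (-12.7 to 12.2 on the second array set). Per the labels' protocols, RNA was extracted with PicoPure, amplified in 2 rounds with RiboAmp HS Plus and labelled with ULS dyes. Array medians lay between -0.0061 and 0.0105, and values were used uncentred. The part of the ratio common to all arrays (SD over probes 0.261 and 0.304) exceeded that following the dyes (0.178 and 0.203), so deposited values were averaged as they stand. This does not settle the numerator. With the sign of the early-in-Cy5 arrays turned, 10279 and 6958 probes had an unadjusted p under 0.05 in limma. Unturned, with median-centred arrays, 6642 and 7394 did.

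Symbols came from the platform annotation (18121 and 10290 probes with 1 symbol, 0 with several, 25673 and 34930 unnamed). For gene fits they were updated through RefSeq accessions (2658 of 4740 and 6055 of 10193 matched) and synonyms (241 and 70), and probes of a symbol were averaged. The sets were fitted apart, with lmFit and eBayes of limma 3.58.1 (R 4.3.3; stage effect plus dye term, 2-sided, Benjamini-Hochberg over all probes or genes, threshold 0.05). Errors are the fit's SE over 6 arrays, whose number limits the precision. On simulated data the fit recovered 85.8% and 79.1% of log2 changes of 1 for the first and second array set. Of changes of 0.5 it recovered 45.6% and 25.9%, so ratios of that size can be missed. Of its calls there 5.26% and 3.23% were false. Named are all member probes, up to 6 called genes per list and the 3 nearest genes per member (LOC symbols passed over). Members and lists were chosen with earlier results of these data known. Alternatives cover dye, slide, scaling, pairing, direction, probe averaging and single arrays.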

Additional observations from a re-analysis of the deposited data

Results flagged for a closer look

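On the second array set the CRABP2 probe 24719 read -0.74 on hatched in Cy5 replicate 3, far from the other 5 arrays, which lay between -0.0767 and 0.18. The gap was 0.718 of the whole range, above the critical value of 0.625 for 6 samples. Chance flags about 1 in 20 groups, and 37 probes were examined.

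On the first array set the FASN probe 25664 separated by dye. Its mean was -0.11 over the 3 arrays with hatched blastocyst in Cy5 and 0.31 over the 3 with early blastocyst in Cy5, on opposite sides of 0 on every array. The dye term of -0.21 did not pass after adjustment over all probes (limma adjusted p = 0.118).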

How the results depend on the processing

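Each of the 37 member probes was recomputed under 21 settings. Of the 777 values, 740 were labelled unchanged, 24 lost a call, 6 gained one and 7 turned sign. Unchanged means the same side of the threshold and any called direction. For the slide of 2 arrays, which gave no p-value, it means within 1 SD over arrays of the estimate above. Most of the 37 probes were not called above and so had no call to lose. The gains include FASN probes 25664, 4154 and 37918, given the mean or median of the gene's probes. The member probes called, 3 on the first and 5 on the second array set, numbered 1 on the first with slide as a fixed block (1274 of all its probes) and 1 within the slide of 4 arrays (1218 of all), 0 with trended and robust eBayes (5 at an unadjusted p under 0.05; 0 of all its probes), and between 1 and 3 without single arrays (5 throughout on the second). They numbered 0 on both with pairs averaged. For genes of the pathway lists, 8 and 11 called, the counts were 3 on the first array set with slide as a fixed block, 25 and 22 with slide as a random block, 2 and 4 within the slide of 4 arrays, 0 and 0 with pairs averaged (23 and 18 unadjusted), 0 on the first with trended and robust eBayes (28 unadjusted; 0 of all its genes), and 18 on the second without the second residual pair, a setting chosen after seeing the data. Without single arrays they ran from 1 to 10 and from 4 to 12. With slide as a random block 1777 and 1036 of all genes were called, against 566 and 498 without it. The causes were not tested, beyond fewer arrays in some fits.

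If both dye orientations share a numerator, turning the sign of the early-in-Cy5 arrays leaves the dye part. If they do not, the turned values would carry the stage difference. With the sign turned, 0 members or list genes were called by limma (members 1 and 0 unadjusted, list genes 17 and 13). Of all probes 1327 and 3 were called, and of all genes 118 and 0. Values that changed side were, on the first array set, FABP5 (0.32), CRABP2 (-0.026), ACADL (0.16), ELOVL2 (0.072), GATA2 (-0.10) and OXSM (0.033). On the second they were the FABP5 probes 12923 (0.21), 25624 (0.20), 29876 (0.25) and 32343 (0.19), FASN 17426 (-0.057), ACADM (0.10), ACLY (-0.017), AMH (-0.16), ECHS1 (-0.0021), GATA2 (-0.13), GATA6 (0.0038), NCOA1 (0.0103), PECAM1 (0.041), PPARG (0.0595), RARRES2 (-0.12), RXRA (-0.39) and UPTI (-0.10). No paired analysis was possible because the labels give no replicate numbers; the residual pairs, used as a random replicate block, come from the data, and with them 3 and 5 member probes and 6 and 8 list genes were called. Without intensities, ratios of dim probes cannot be told from true ratios near 0.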
